A study of Macaca fascicularis with 6 samples.

Results

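The 7 genes described here form the APRIL, BAFF and CD40 axes, chosen by symbol among the 28623 genes of each library: the ligands TNFSF13 (APRIL), TNFSF13B (BAFF) and CD40LG, and the receptors TNFRSF17 (BCMA), TNFRSF13B (TACI), TNFRSF13C (BAFF-R) and CD40. All 7 had UMIs in each of the 6 libraries. A UMI is a molecular tag that counts 1 captured transcript once. Lung cells came from male cynomolgus monkeys aged 3 to 5 years, with 1 droplet-based single-cell library per monkey. The 3 control monkeys (replicates 1, 2 and 3) received saline. The 3 asthma monkeys (replicates 8, 10 and 11) were sensitised with injected antigen of the roundworm A. suum at 1 mg/mL, mixed with adjuvant. They were challenged intranasally at 10 mg/mL. Lung was collected in week 11, after airway tests with methacholine. The study names no adjuvant for the saline controls, so antigen and adjuvant cannot be told apart. The model rests on a single allergen, and the libraries hold males only.

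APRIL and BAFF are ligands of the TNF family that keep B cells and plasma cells alive. BAFF acts mainly through BAFF-R on mature B cells, both ligands bind TACI, and APRIL bound to BCMA is known for the survival of long-lived plasma cells. CD40LG on activated helper T cells binds CD40 on B cells, dendritic cells and macrophages, and licenses B cells for class switching, the step that leads to IgE in allergic airway disease.

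Control replicate 1 had the most UMIs of its group with 40556102, followed by replicate 2 with 33210436 and replicate 3 with 32240293, and asthma replicates 8, 10 and 11 had 41184329, 41489879 and 29014556. After quality control 24235 cells remained, from 3200 in control replicate 2 to 4620 in asthma replicate 10. They were named from marker genes as 10178 T and NK-like, 3426 macrophage-like, 2310 stromal-like, 1920 monocyte-like, 1657 granulocyte-like, 946 epithelial-like, 871 B-like, 615 MC-like (UPK3B, MSLN and ITLN1), 516 dendritic-like, 142 plasma-like and 109 mast-like cells. A further 1545 cells with markers of several types were left out of the cell types. The 7 genes were left out of the variable genes used for clustering and are in no marker list. Each cell type had all its listed markers that are in the files above the other cells, except 1 of 7 in MC-like cells, at 0. Among the 24160 different barcodes of these cells, 75 occurred in more than 1 library.

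Some libraries stood apart in composition. Asthma replicate 11 held 29 B-like cells against 130 to 226 in the others, and its monocyte-like share was 20.4% against 2.66% to 10.0% in the rest of the libraries. Asthma replicate 8 held 9 plasma-like cells, fewer than the 10 required of a library, and did not enter the plasma-like fits. Granulocyte-like cells were shallow, with a median of 1005 UMIs per cell against 4200 in B-like and 18289 in macrophage-like cells.

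Levels are given as counts per 1000000 UMIs of a cell type (CPM), over libraries with at least 10 cells of it. Capture differs between genes, so levels were compared between cell types and libraries and not between genes. The ligands and receptors differed in the cell types where they were highest, and some shared a cell type. APRIL was highest in macrophage-like and monocyte-like cells, BAFF in monocyte-like and granulocyte-like cells, and CD40LG in CD4 T-like cells. BCMA was highest in plasma-like cells, TACI and BAFF-R in B-like cells, and CD40 in dendritic-like and B-like cells.

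**Figure D1:**
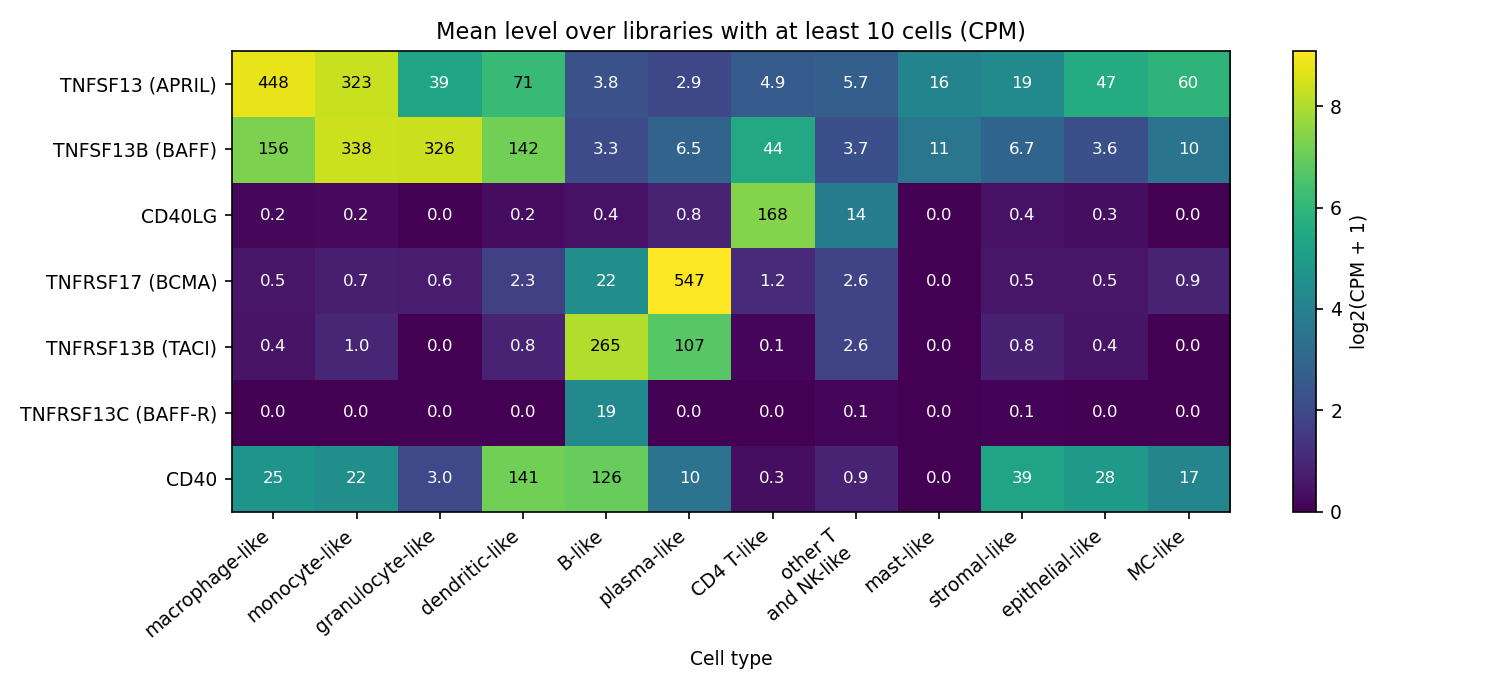
Mean level (CPM, printed in each cell and coloured as log2(CPM + 1)) of the 7 genes in each cell type, over libraries with at least 10 cells. TNFSF13 and TNFSF13B are brightest in myeloid columns, CD40LG in CD4 T-like cells, TNFRSF17 in plasma-like cells (547 CPM) and TNFRSF13B in B-like cells (265 CPM).

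TNFSF13, the APRIL ligand, had 39321 UMIs in all cells, of which 73.9% lay in macrophage-like cells and 13.1% in monocyte-like cells. In macrophage-like cells its level was 431, 411 and 486 CPM for control replicates 1, 2 and 3, against 541, 488 and 330 CPM for asthma replicates 8, 10 and 11. The groups overlapped, and both the highest and the lowest library were of the asthma group. The mean was 448 ± 74.1 CPM (SD, n = 6) in macrophage-like cells, 323 ± 24.6 CPM (SD, n = 6) in monocyte-like cells and 70.6 ± 16.1 CPM (SD, n = 6) in dendritic-like cells. Macrophage-like and monocyte-like cells overlapped in their library ranges, but within each library TNFSF13 was higher in macrophage-like cells, in 6 of 6, a pair compared after its values were seen and not tested. Every monocyte-like library lay above every dendritic-like one.

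Below these came MC-like cells at 59.7 ± 27.1 CPM (SD, n = 6), epithelial-like cells at 47 ± 7.77 CPM (SD, n = 6), granulocyte-like cells at 39.2 ± 24.1 CPM (SD, n = 6) and stromal-like cells at 19.3 ± 7.3 CPM (SD, n = 6), whose neighbours in this order overlapped. The 38 epithelial-like cells without a subtype, all of control replicate 1, had 42 TNFSF13 UMIs, or 352 CPM. The named epithelial-like subtypes had 35.1 to 49.1 CPM. The part of these 38 cells in the epithelial-like level was not tested. T and NK-like cells had 5.41 ± 1.55 CPM (SD, n = 6). TNFSF13 was higher in macrophage-like than in T and NK-like cells in 6 of 6 libraries, by a log2 difference of 4.88 ± 0.30 on the log2(CPM + 10) scale (SD, n = 6, two-sided exact sign-flip permutation test, p = 0.03125, adjusted p = 0.0391 over 10 contrasts). It was higher in macrophage-like than in MC-like cells in 6 of 6 libraries, by 2.78 ± 0.71 (SD, n = 6, same exact test, adjusted p = 0.0391). The smallest p that 6 libraries allow is 0.03125.

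A UMI of TNFSF13 was found in 95% of macrophage-like cells and in 1.94% of T and NK-like cells, whose median depths were 18289 and 3659 UMIs. With cells of at least 1500 UMIs thinned to 1500, and shallower cells left out here and below, the shares were 47.4% and 0.751%. They rest on 3400 of 3426 macrophage-like and 9717 of 10178 T and NK-like cells. Among macrophage-like cells, TNFSF13 was higher in alveolar than in interstitial macrophage-like cells in 5 of the 5 libraries with at least 10 of each, at 464 ± 89.1 against 362 ± 70.6 CPM (SD, n = 5). Of the 1078 interstitial cells, 539 formed a sub-cluster led by CCL17, CLEC10A and JAML. It scored highest for macrophage markers and second for dendritic markers, with the dendritic markers CLEC10A and CD1E among its 10 leading genes. Plasmacytoid dendritic-like cells, 61 in all, had 98 TNFSF13 UMIs, or 213 CPM, and their most abundant plasma marker was JCHAIN, which these cells are known to express. The 183 type 1 dendritic-like cells had 32 CPM.

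TNFSF12, the gene next to TNFSF13 in the file's gene order, encodes the related ligand TWEAK, and the pair is known for read-through transcripts, so counting could split reads between both. Its level followed another order, with 188 ± 10.4 CPM (SD, n = 2) in mast-like cells, 126 ± 17.4 CPM (SD, n = 6) in macrophage-like cells, 117 ± 23.7 CPM (SD, n = 6) in stromal-like cells, 79.6 ± 10.1 CPM (SD, n = 6) in monocyte-like cells and 76.9 ± 9.89 CPM (SD, n = 6) in T and NK-like cells. The genes whose level over 36 cell types and subtypes was most like that of TNFSF13 were CTSB (r = 0.887), CSF1R (r = 0.867) and PSAP (r = 0.857), among 11928 genes compared. CTSB and PSAP encode lysosomal proteins, and CSF1R, the receptor that macrophages need for survival, was among the monocyte markers used for naming. The points share libraries and cells, and r is a description.

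TNFSF13B, the BAFF ligand, had 19848 UMIs, of which 51.7% lay in macrophage-like, 29.3% in monocyte-like and 2.19% in granulocyte-like cells, the last with 0.987% of all UMIs. In monocyte-like cells its level was 245, 411 and 422 CPM for control replicates 1, 2 and 3, against 278, 314 and 360 CPM for asthma replicates 8, 10 and 11. The groups overlapped, and control replicate 1 was the lowest. Monocyte-like cells had a mean of 338 ± 71.6 CPM (SD, n = 6) and macrophage-like cells 156 ± 60.2 CPM (SD, n = 6). TNFSF13B was higher in monocyte-like than in macrophage-like cells in 6 of 6 libraries, by 1.11 ± 0.52 on the log2(CPM + 10) scale (SD, n = 6, two-sided exact sign-flip permutation test, adjusted p = 0.0391).

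Of all cell types, granulocyte-like cells had the largest SD of TNFSF13B between libraries, at 326 ± 265 CPM (SD, n = 6). Their TNFSF13B level was 192, 391 and 812 CPM in control replicates 1, 2 and 3, from 32, 161 and 76 UMIs, and 328, 68.5 and 165 CPM for asthma replicates 8, 10 and 11, from 90, 37 and 39 UMIs. Control replicate 3, with 97 granulocyte-like cells, was highest and asthma replicate 10, with 522, was lowest. TNFSF13B was higher in granulocyte-like than in B-like cells in 6 of 6 libraries, by 4.31 ± 1.20 on the log2(CPM + 10) scale (SD, n = 6, same exact test, adjusted p = 0.0391), where B-like cells had 3.27 ± 2.38 CPM (SD, n = 6). In the order of levels, granulocyte-like cells overlapped both monocyte-like and macrophage-like cells, and macrophage-like cells overlapped dendritic-like cells (142 ± 29.8 CPM, SD, n = 6). Every dendritic-like library lay above every T and NK-like one.

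**Figure D2:**
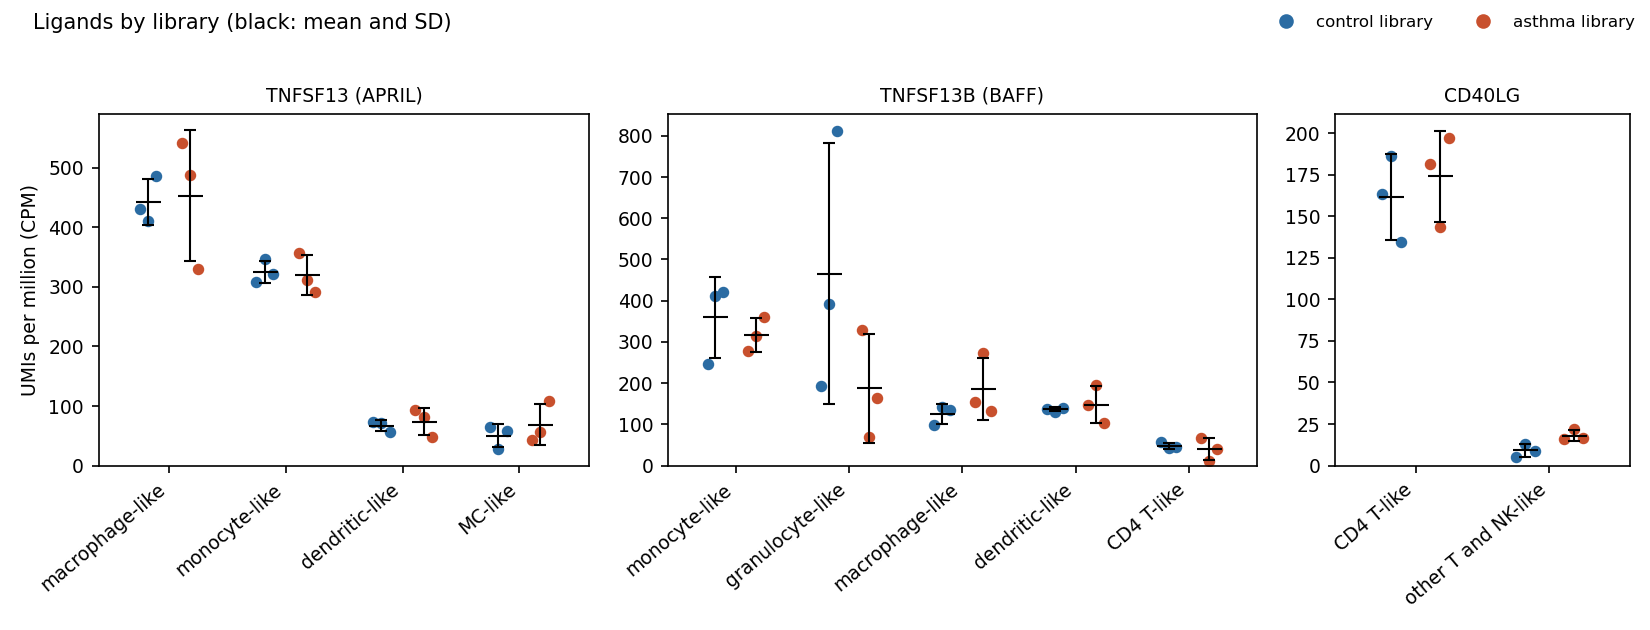
Level (CPM, linear axes) of the 3 ligands in each library of the cell types where they were highest, with control libraries in blue, asthma libraries in orange, and the mean and SD of each group in black. The TNFSF13B points of granulocyte-like cells spread from 68.5 to 812 CPM, while CD40LG in CD4 T-like cells lies between 134 and 197 CPM.

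Within the macrophage-like cells BAFF and APRIL went opposite ways. TNFSF13B was higher in interstitial than in alveolar macrophage-like cells in 5 of 5 libraries, at 264 ± 33.3 against 85.1 ± 28.7 CPM (SD, n = 5), where TNFSF13 was the lower one in interstitial cells. As given above, 539 of the 1078 interstitial cells lay in a sub-cluster with dendritic markers among its leading genes, and their part in this difference was not tested. Nonclassical monocyte-like cells had more TNFSF13B than classical ones in 6 of 6 libraries, at 446 ± 92.1 against 355 ± 85.5 CPM (SD, n = 6). These subtypes were compared after their values were seen, and no test was run. In monocyte-like cells 1360 of 1920 had UMIs of both ligands.

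BAFF was also found in T cells. CD4 T-like cells had 44.2 ± 18.4 CPM of TNFSF13B (SD, n = 6) against 3.65 ± 2.46 CPM (SD, n = 6) in the other T and NK-like cells, and were higher in 6 of 6 libraries. A UMI of it was in 11.4% of CD4 T-like and 1.06% of other T and NK-like cells, with median depths of 3926 and 3601 UMIs. The 6 monocyte markers in the files summed to 92.7 CPM in CD4 T-like cells, with LYZ most abundant at 75.5 CPM and CD300E at 0, and LYZ reached 60.4 to 86.4 CPM in CD8 T-like and NK-like cells. Whether RNA of monocytes took part in the level was not tested. MNDA (r = 0.916), TYMP (r = 0.905) and CSTA (r = 0.894) were most like TNFSF13B over the 36 cell types and subtypes, and MNDA is known as a myeloid nuclear antigen.

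CD40LG, the helper T cell ligand of CD40, had 1702 UMIs, of which 91.5% lay in T and NK-like cells. In CD4 T-like cells its level was 164, 186 and 134 CPM for control replicates 1, 2 and 3, against 181, 143 and 197 CPM for asthma replicates 8, 10 and 11. The groups overlapped. CD4 T-like cells had 168 ± 24.9 CPM (SD, n = 6) against 13.6 ± 5.84 CPM (SD, n = 6) in the other T and NK-like cells. The difference was 2.94 ± 0.40 on the log2(CPM + 10) scale, with CD4 T-like cells higher in 6 of 6 libraries (SD, n = 6, two-sided exact sign-flip permutation test, adjusted p = 0.0391). With cells of at least 200 genes and no maximum, the name CD4 T-like fell on 1193 cells that held 145 of the 1575 CD40LG UMIs of T and NK-like cells (1120 of 1558 here), and the difference was -0.29 (exact test, adjusted p = 0.25).

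In the other T and NK-like cells CD40LG was 5.44, 13.1 and 8.93 CPM in the control libraries and 15.7, 21.9 and 16.4 CPM in the asthma libraries, from 29 to 126 UMIs. The groups did not overlap, as for 10.9% of the genes tested in T and NK-like cells when counted in these cells alone. Of their 438 CD40LG UMIs, 354 lay in the 4072 cells without a subtype (24.8 CPM). The rest included 82 Treg-like cells with 56 CPM, 592 proliferating cells with 9.66 CPM, 2817 NK-like cells with 0.783 CPM and 1019 CD8 T-like cells with 3.95 CPM. Cells without a subtype were 1724 of 4521 in control and 2348 of 4061 in asthma libraries, and NK-like cells were 1809 and 1008. Within the cells without a subtype CD40LG was 10.1, 22.5 and 16.9 CPM in control replicates 1, 2 and 3. It was 22.8, 39 and 36.9 CPM for asthma replicates 8, 10 and 11. The part of these shares in the level was not tested beyond this. A UMI of CD40LG was in 36.9% of CD4 T-like cells (20.2% after thinning to 1500 UMIs) and in 0.204% of macrophage-like cells. B-like cells had 2 CD40LG UMIs, and granulocyte-like, MC-like and mast-like cells had none. CXCR6 (r = 0.945), a chemokine receptor of tissue T cells, IFNL1 (r = 0.941) and CD28 (r = 0.933), the costimulatory receptor, were most like CD40LG, and CD28 was among the CD4 T markers used for naming.

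TNFRSF17, the BCMA receptor, had 1228 UMIs, and 74.8% of them lay in the 142 plasma-like cells, which were 0.586% of all cells. In plasma-like cells its level was 569, 494 and 689 CPM in control replicates 1, 2 and 3, and 570 and 414 CPM in asthma replicates 10 and 11. The 9 plasma-like cells of asthma replicate 8, too few to enter, had 497 CPM. Groups overlapped. Plasma-like cells had 547 ± 102 CPM (SD, n = 5), and B-like cells of the same libraries 20.2 ± 5.74 CPM (SD, n = 5). The difference was 4.21 ± 0.42 on the log2(CPM + 10) scale and was positive in 5 of 5 libraries (SD, n = 5, two-sided exact sign-flip permutation test, p = 0.0625, adjusted p = 0.0625). That is the smallest p that 5 libraries allow, so the test could not pass 0.05.

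A UMI of TNFRSF17 was in 82.4% of plasma-like cells, 7.69% of B-like cells and 0.58% of T and NK-like cells. After thinning to 1500 UMIs the shares were 48.1%, 2.56% and 0.216%. The 67 B-like cells with a TNFRSF17 UMI had a MS4A1 UMI in 100% and a JCHAIN UMI in 16.4%, while the 804 without had them in 99% and 10.1%, at median depths of 4589 and 4157 UMIs. MS4A1 is the CD20 gene of B cells, and JCHAIN encodes the joining chain of secreted IgM and IgA. MZB1 (r = 0.883), IGKV1OR2-108 (r = 0.868) and POU2AF1 (r = 0.861) were most like TNFRSF17, where MZB1 and POU2AF1 were among the plasma markers used for naming.

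TNFRSF13B, the TACI receptor, had 1544 UMIs, of which 68.1% lay in B-like, 11.7% in plasma-like and 6.09% in T and NK-like cells. In B-like cells its level was 216, 218 and 228 CPM in control replicates 1, 2 and 3, and 348, 315 and 267 CPM for asthma replicates 8, 10 and 11, from 205, 166, 190, 267, 188 and 35 UMIs. Every asthma library lay above every control library, where 11.4% of all genes tested in B-like cells had groups that did not overlap in either direction, and the lowest asthma value came from the 29 cells of replicate 11. B-like cells had a mean of 265 ± 55.4 CPM (SD, n = 6), plasma-like cells 107 ± 41.5 CPM (SD, n = 5) and T and NK-like cells 2.21 ± 2.08 CPM (SD, n = 6), with no overlap between these library ranges. The difference between B-like and T and NK-like cells was 4.49 ± 0.37 on the log2(CPM + 10) scale, positive in 6 of 6 libraries (SD, n = 6, two-sided exact sign-flip permutation test, adjusted p = 0.0391).

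A UMI of TNFRSF13B was in 50.3% of B-like and 57% of plasma-like cells, and in 25.2% and 20.7% after thinning to 1500 UMIs. Of the 142 plasma-like cells, 71 had UMIs of both TNFRSF13B and TNFRSF17. In T and NK-like cells 72 of its 94 UMIs lay in the 592 proliferating cells, which also held 42 of the 95 TNFRSF17 UMIs. The 82 Treg-like cells had 8 TNFRSF13B UMIs, or 22.4 CPM, against 17.8 CPM in the proliferating cells. Among the latter, 45 TNFRSF13B UMIs came from control replicate 3 and 19 from asthma replicate 10. In the proliferating cells the 8 B markers in the files all had UMIs and summed to 75.8 CPM, with CD79B most abundant, against 58.9 CPM in Treg-like, 46.1 CPM in CD4 T-like and 16.2 CPM in the T and NK-like cells without a subtype. The 7 plasma markers summed to 1949 CPM there, with IGKC at 1524 CPM. Their sum was 901 CPM in NK-like, 300 CPM in Treg-like, 125 CPM in CD8 T-like and 120 CPM in CD4 T-like cells, and 199 CPM without a subtype. Whether proliferating B or plasma cells were among the cells named proliferating was not tested. CD79B (r = 0.963), XKRX (r = 0.957) and CD79A (r = 0.952) were most like TNFRSF13B, and CD79A and CD79B, the signalling chains of the B cell receptor, were among the B markers used for naming.

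TNFRSF13C, the BAFF-R receptor, was captured rarely, with 81 UMIs in all cells, of which 68 lay in B-like cells. Its level in B-like cells was 13.7, 14.5 and 15.6 CPM in control replicates 1, 2 and 3, from 13, 11 and 13 UMIs, and 19.6, 20.1 and 30.6 CPM for asthma replicates 8, 10 and 11, from 15, 12 and 4 UMIs. Every asthma library lay above every control library, where 11.4% of all genes tested in B-like cells had groups that did not overlap in either direction. The highest value rests on 4 UMIs. Plasma-like cells had 2 UMIs, both in asthma replicate 8, which is 1.11 CPM with an exact 95% counting interval of 0.134 to 4.01 CPM, against 16.8 CPM (13.1 to 21.3 CPM) in B-like cells. Granulocyte-like, monocyte-like, dendritic-like, MC-like, epithelial-like and mast-like cells had no TNFRSF13C UMI. Taking 3 counts as the limit of a count of 0, up to 0.156% of monocyte-like and 0.581% of dendritic-like cells could hold one. The limit is for cells with a UMI and not for cells that express the gene, since the UMI was in 7.46% of B-like cells.

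In the 5 libraries with at least 10 plasma-like cells TNFRSF13C had 53 UMIs in B-like cells, or 16.2 CPM, and none among 1614687 UMIs of plasma-like cells. Against the 3 counts that a count of 0 allows over these libraries (1.86 CPM), B-like cells were at least 8.72-fold higher. With asthma replicate 8, whose 9 plasma-like cells held the 2 UMIs, the ratio over all cells was 15.2 with an exact 95% counting interval of 4.04 to 128. The difference on the log2(CPM + 10) scale, 1.5 ± 0.32 (SD, n = 5), has its size set by the added 10 CPM, and its sign follows from the counts of 0 (two-sided exact sign-flip permutation test, adjusted p = 0.0625). PAX5 (r = 0.988), the transcription factor of B cell identity, FCRL1 (r = 0.978), a B cell surface receptor, and VPREB1 (r = 0.976) were most like TNFRSF13C. Intervals and limits from counts cover counting error only.

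CD40, the receptor for CD40LG, had 4677 UMIs, of which 38.4% lay in macrophage-like, 18.7% in dendritic-like, 10.8% in B-like and 8.12% in stromal-like cells. In dendritic-like cells its level was 119, 212 and 111 CPM for control replicates 1, 2 and 3, against 133, 195 and 74.8 CPM for asthma replicates 8, 10 and 11. In B-like cells it was 98.9, 155 and 109 CPM in the control libraries and 155, 109 and 130 CPM in the asthma libraries. Groups overlapped in both. Means were 141 ± 52.6 CPM (SD, n = 6) in dendritic-like and 126 ± 24.6 CPM (SD, n = 6) in B-like cells, which did not differ beyond the spread of libraries, and 39.2 ± 11.1 CPM (SD, n = 6) in stromal-like cells, which lay below both in every library range.

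CD40 was higher in B-like than in T and NK-like cells in 6 of 6 libraries, by 3.64 ± 0.28 on the log2(CPM + 10) scale (SD, n = 6, two-sided exact sign-flip permutation test, adjusted p = 0.0391). It was higher in dendritic-like than in macrophage-like cells in 6 of 6 libraries, by 2.08 ± 0.39 (SD, n = 6, same exact test, adjusted p = 0.0391). Stromal-like, epithelial-like (28.5 ± 9.24 CPM), macrophage-like (25.4 ± 12.5 CPM) and monocyte-like cells (21.6 ± 20.2 CPM, SD, n = 6 each) overlapped in turn. The monocyte-like mean rested on asthma replicate 8 at 60.6 CPM, with the other libraries between 3.93 and 22.4 CPM. Of its 230 CD40 UMIs, 197 lay in the 483 monocyte-like cells without a subtype (38.4 CPM), of which 139 formed a sub-cluster that scored highest for dendritic markers, against 4.17 CPM in classical and 0.513 CPM in nonclassical monocyte-like cells. T and NK-like cells had 0.769 ± 0.271 CPM (SD, n = 6), with a CD40 UMI in 0.236% of cells against 28.4% of macrophage-like cells, or 0.103% against 4.12% after thinning to 1500 UMIs.

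**Figure D3:**
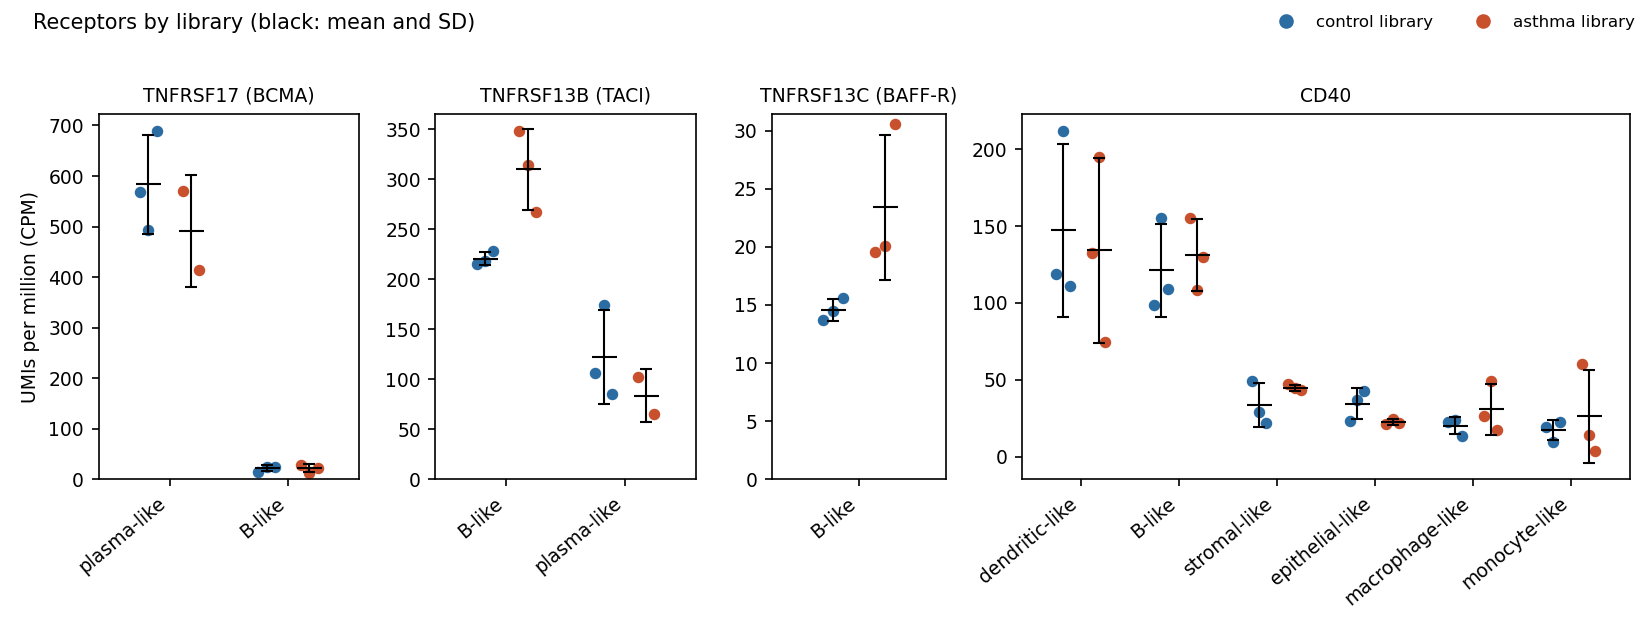
Level (CPM, linear axes) of the 4 receptors in each library, with control libraries in blue, asthma libraries in orange, and the mean and SD of each group in black. In B-like cells the 3 asthma libraries lie above the 3 control libraries for TNFRSF13B (267 to 348 against 216 to 228 CPM) and TNFRSF13C, while the groups overlap for CD40 in dendritic-like and B-like cells. Groups did not overlap in either direction for 11.4% of all genes tested in B-like cells.

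Within the dendritic-like cells CD40 was found widely, with a UMI in 62.2% of the 516 cells, and its level differed between subtypes. The 34 mature dendritic-like cells had 183 CD40 UMIs, or 451 CPM, with a UMI in 94.1% of cells, and between 275 and 1005 CPM in the 6 libraries, each from 3 to 9 cells. They also had 148 TNFSF13B UMIs, or 364 CPM, between 137 and 535 CPM in the 6 libraries. Type 1 dendritic-like cells, which take up dying cells for presentation to T cells, held 425 of the 873 CD40 UMIs and had 178 ± 51.2 CPM of CD40 (SD, n = 4) against 86.7 ± 25 CPM (SD, n = 4) in those without a subtype, higher in 4 of 4 libraries. These were the 3 control libraries and asthma replicate 8, the latter with 13 type 1 cells. Asthma replicates 10 and 11 held 2 and 4 type 1 cells and did not enter. No test was run for this pair. LRRK1 (r = 0.779), RUFY3 (r = 0.765) and HLA-DOA (r = 0.759) were most like CD40, and HLA-DOA is known for antigen presentation by B cells.

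The B-like cells fell into 5 sub-clusters of 215, 198, 198, 140 and 120 cells, none of which could be named from the markers. Sub-cluster 4 held 133 of its 140 cells from control replicate 1 and cannot be told apart from that library. Sub-cluster 2, led by JCHAIN, RPL22L1, MZB1, LTB, EVL and CR2, held cells of all 6 libraries. Its CD40 level was 224, 270 and 253 CPM for control replicates 1, 2 and 3, against 209, 178 and 224 CPM for asthma replicates 8, 10 and 11. All other B-like cells lay between 54.9 and 103 CPM in the same libraries, so sub-cluster 2 was higher in 6 of 6, at 226 ± 32.6 against 79.1 ± 18 CPM (SD, n = 6).

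TNFRSF13C was also higher in sub-cluster 2 in 6 of 6 libraries, at 28.6 ± 12.1 against 13.9 ± 2.58 CPM (SD, n = 6), from 29 UMIs in all. TNFRSF13B was lower there in 5 of 6 libraries and ran from 113 to 142 CPM in the control libraries against 243 to 274 CPM in their other B-like cells. For asthma replicates 8, 10 and 11 it was 307, 604 and 259 CPM in sub-cluster 2, from 46, 17 and 13 cells, against 388, 247 and 275 CPM in the other B-like cells. Within sub-cluster 2 the groups did not overlap for TNFRSF13B, as for 10.7% of the genes tested in B-like cells. In the other B-like cells, where 11.5% of these genes were separated, asthma replicate 10 lay inside the control range. These cells were chosen after their values were seen, and no test was run.

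**Figure D4:**
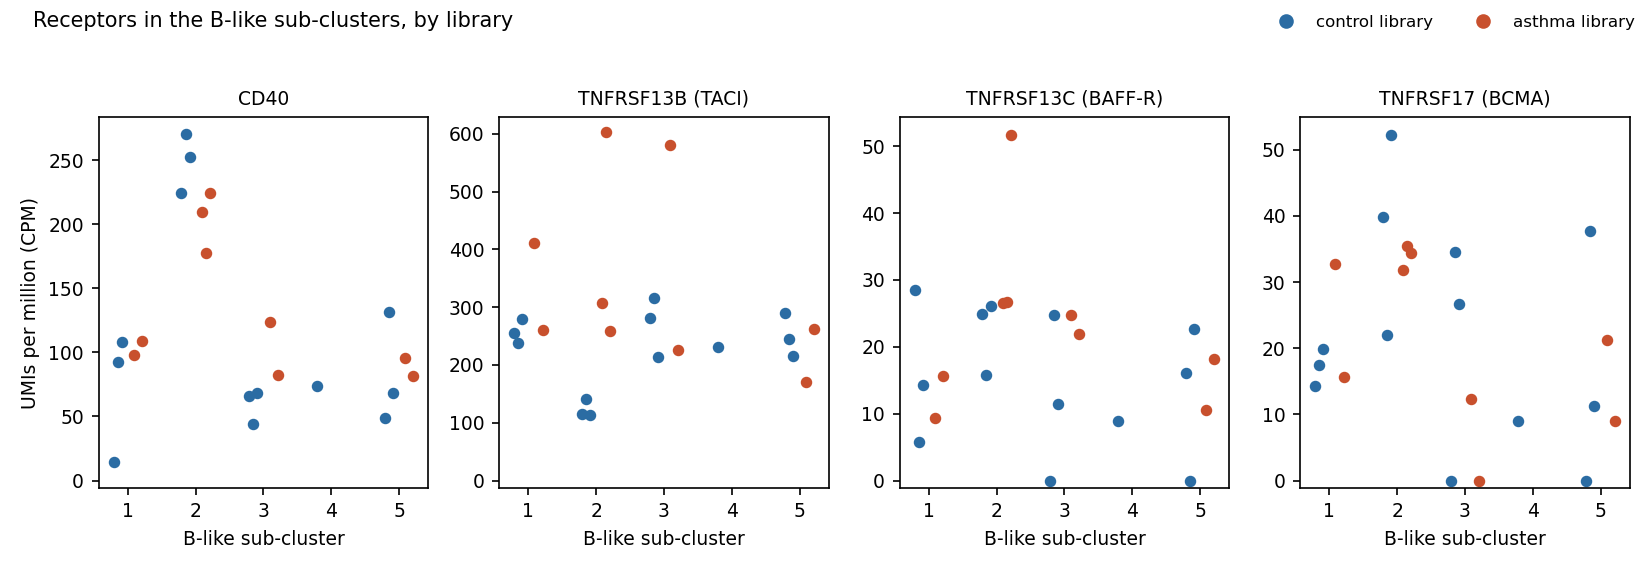
Level (CPM, linear axes) of 4 receptors in the 5 B-like sub-clusters, with 1 point for each library with at least 10 cells, control in blue and asthma in orange. CD40 in sub-cluster 2 runs from 178 to 270 CPM, above the points of the other sub-clusters, and TNFRSF13B in the 3 control libraries is lowest there.

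Whether the asthma group differed from the control group was tested on UMIs summed per library and cell type, with edgeR's quasi-likelihood test and Benjamini-Hochberg adjustment over all genes of a fit. A gene was called at an adjusted p under 0.05 with an absolute log2 fold change over 0.25. Of the 7 genes, none was called in any of the 10 cell type fits, in CD4 T-like cells or over all cells. Over 26 tests of the genes in the cell type fits, the smallest adjusted p was 0.626 and 3 had an unadjusted p under 0.05, where 7.8% of all gene tests in these fits did. DESeq2 called none of them either and had 3 at an unadjusted p under 0.05.

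Few genes of any kind were called. Over the 10 cell type fits 188 of 70220 tests were called, or 0.268%, of which 185 lay in stromal-like cells (1.94%). B-like cells had 0.0158% and MC-like cells 0.0369% of genes called, and the fits of T and NK-like, CD4 T-like, plasma-like, myeloid (macrophage-like, monocyte-like, granulocyte-like, dendritic-like) and epithelial-like cells had 0%. At an unadjusted p under 0.05 these last 8 fits held from 107 genes in granulocyte-like to 710 in T and NK-like cells, and DESeq2 called from 0 genes in granulocyte-like and plasma-like to 78 in T and NK-like cells. With all cells of a library summed, 0.0839% were called.

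Both receptors whose groups separated did so in B-like cells. TNFRSF13B was at 310 ± 40.6 CPM in asthma against 221 ± 6.47 CPM in control libraries (SD, n = 3 each). Its log2 fold change was 0.46 ± 0.17 (SE, edgeR, unadjusted p = 0.0181, adjusted p = 0.731). Outside sub-cluster 2 the groups overlapped, as given above. The 9 T and NK markers in the files summed to 325, 224 and 184 CPM in the B-like cells of control replicates 1, 2 and 3, against 110, 70.3 and 168 CPM for asthma replicates 8, 10 and 11, with CD3G most abundant and CD247 at 0. These sums did not overlap either, and their part in the receptor levels was not tested. TNFRSF13C in the same cells had 23.4 ± 6.21 against 14.6 ± 0.966 CPM (SD, n = 3 each), a log2 fold change of 0.47 ± 0.37 (SE, edgeR, adjusted p = 0.888). Libraries of the groups did not overlap for 11.4% of all genes tested in B-like cells, and for 2 of the 4 members tested there. CD40 in B-like cells had a log2 fold change of 0.08 ± 0.22 and TNFRSF17 of -0.03 ± 0.39 (SE).

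The largest ligand difference was that of TNFSF13B in granulocyte-like cells, 187 ± 131 CPM in asthma against 465 ± 317 CPM in control libraries (SD, n = 3 each). Its log2 fold change was -1.32 ± 0.58 (SE, edgeR, unadjusted p = 0.0437, adjusted p = 1.0), and the groups overlapped. It was -0.76 without control replicate 3, -0.89 without asthma replicate 10 and -1.99 without asthma replicate 8. With no filter on low counts its adjusted p was 0.046 in edgeR, the single call of a member under any alternative. In these cells the 9 T and NK markers summed to 36.1, 170 and 224 CPM for control replicates 1, 2 and 3. For asthma replicates 8, 10 and 11 they summed to 106, 90.7 and 59.2 CPM. The 6 monocyte markers summed to 3328 CPM over all granulocyte-like cells, with VCAN most abundant. The part of other cell types in the TNFSF13B difference was not tested. In macrophage-like cells TNFSF13B went the other way, with 187 ± 75.5 against 125 ± 23.7 CPM (SD, n = 3 each) and a log2 fold change of 0.47 ± 0.31 (SE, edgeR, adjusted p = 0.89). Without asthma replicate 10, the library with 273 CPM, macrophage-like TNFSF13B lay at 133 and 154 CPM in the remaining asthma libraries. Subtypes differed between libraries, with 352 interstitial and 4 alveolar cells in asthma replicate 10. Within interstitial macrophage-like cells TNFSF13B was 277 ± 56.8 CPM in asthma against 278 ± 39.4 CPM in control libraries (SD, n = 3 each), with groups that overlapped, and in those without a subtype 203 ± 30.5 against 125 ± 39.1 CPM (SD, n = 3 each), with groups that did not, as for 14.6% of genes there.

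TNFSF13 in macrophage-like cells had a log2 fold change of -0.08 ± 0.20 and in monocyte-like cells of -0.08 ± 0.14 (SE), with groups that overlapped in both. In T and NK-like cells, where 1.94% of cells had a UMI, it was 6.65 ± 1.06 against 4.18 ± 0.60 CPM (SD, n = 3 each, edgeR adjusted p = 0.733), and the groups did not overlap there, as for 10.6% of genes tested. CD40LG in CD4 T-like cells had a log2 fold change of 0.02 ± 0.18 and in all T and NK-like cells of 0.75 ± 0.40 (SE, edgeR, adjusted p = 0.997 and 0.793). Asthma replicate 11 had 90.2 CPM in T and NK-like cells, of which 421 of its 1086 were CD4 T-like, and the other libraries had 20.1 to 40.2 CPM.

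TNFRSF17 in plasma-like cells was 492 ± 111 CPM in 2 asthma libraries against 584 ± 98 CPM in 3 control libraries (SD). Its log2 fold change was 0.12 ± 0.21 after TMM scaling (SE, edgeR, adjusted p = 0.91), so that its sign differed between the mean CPM and the fit. CD40 had an unadjusted p of 0.0378 in epithelial-like cells, at 22.5 ± 1.75 against 34.5 ± 10.1 CPM (SD, n = 3 each) and a log2 fold change of -0.64 ± 0.26 (SE, edgeR, adjusted p = 0.626). The epithelial-like subtypes differed between groups, with basal-like cells at 31.3% of control and 8.23% of asthma epithelial-like cells and AT1-like cells, named for the flat cells of the alveolus, at 6.55% and 40.8%. Basal-like cells had 52.4 CPM of CD40 and AT1-like cells 7.52 CPM. Within basal-like cells CD40 was 60 ± 17 CPM in 3 asthma libraries and 36.4 ± 18.8 CPM in the 2 control libraries with at least 10 of them (SD). The other named epithelial-like subtypes had lower means in asthma. AT2-like cells had 21.4 ± 5.1 against 29.8 ± 13.1 CPM (SD, n = 3 each), and club-like cells 23 against 27.3 CPM (n = 2 each). AT1-like cells had 5.97 CPM in 3 asthma libraries against 11.1 CPM, from 1 UMI, in 1 control library. The part of the subtypes in the fold change was not tested beyond this. In macrophage-like cells its log2 fold change was 0.52 ± 0.42 (SE, edgeR, adjusted p = 0.903), and -0.04 without asthma replicate 10. In monocyte-like cells it was 0.45 ± 0.85 (SE, edgeR, adjusted p = 0.973), and -1.35 without asthma replicate 8. Monocyte-like cells without a subtype, in which most of this CD40 lay, were 130 of 835 in control and 353 of 1085 in asthma libraries.

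**Figure D5:**
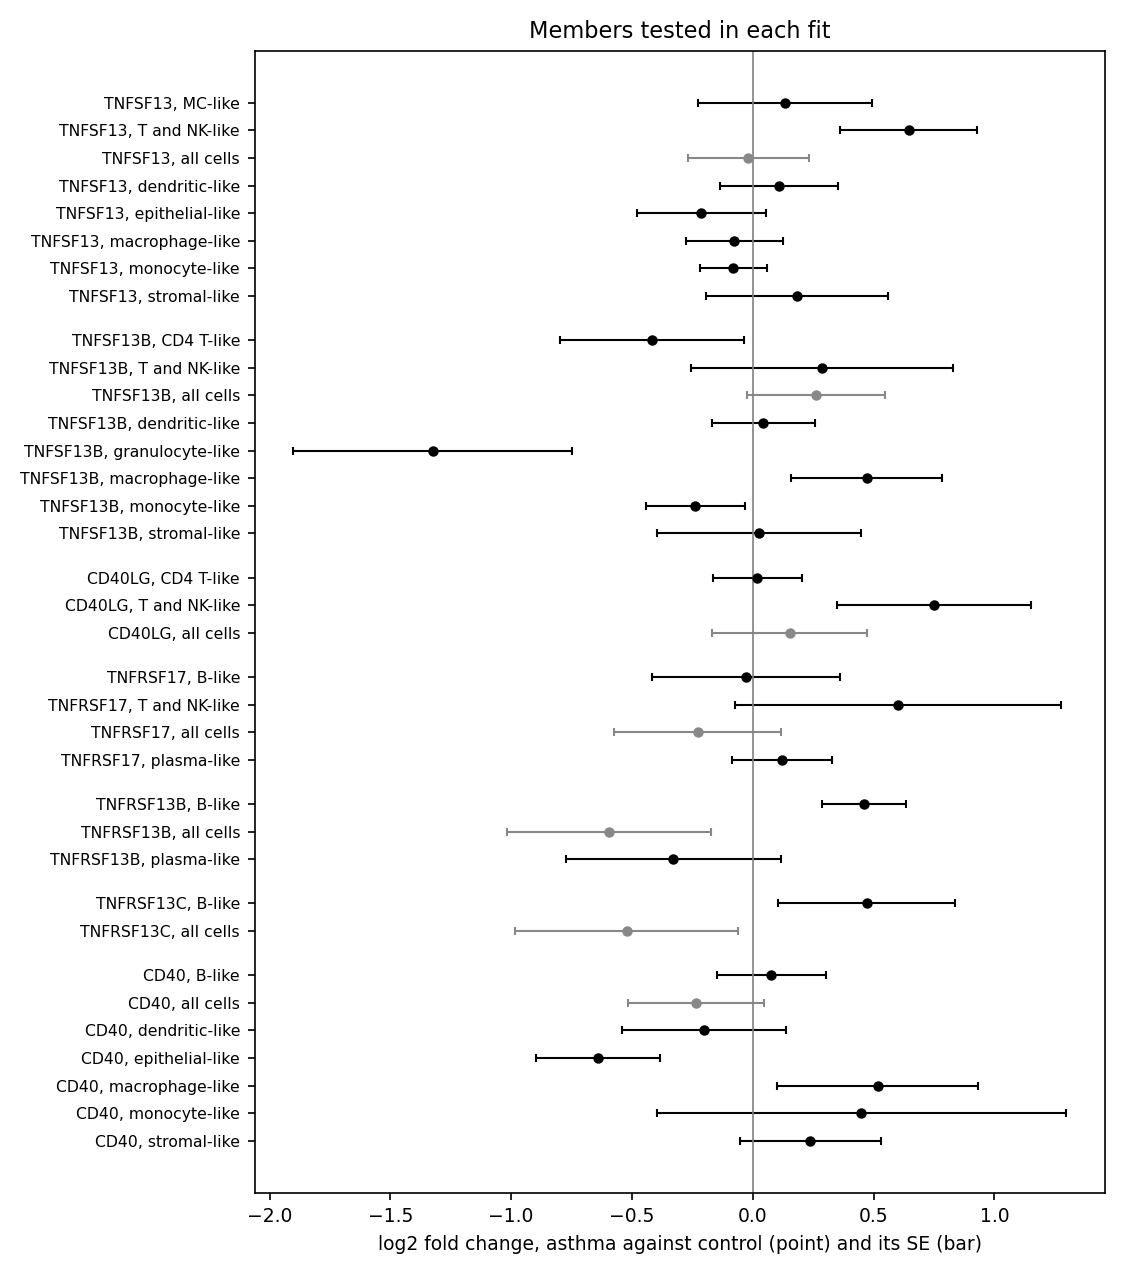
Log2 fold change of asthma against control (points) with its SE (bars) for each gene in each fit where it was tested, with all cells of a library summed in grey. T and NK-like stands for the whole class with its CD4 T-like cells included, and TNFSF13B in granulocyte-like cells is the point farthest from 0, at -1.32.

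With all cells summed, TNFRSF13B and TNFRSF13C went the other way from their level inside B-like cells. TNFRSF13B was 7.43 ± 4.06 CPM in asthma against 10.2 ± 1.37 CPM in control libraries (SD, n = 3 each), a log2 fold change of -0.60 ± 0.42 (SE, edgeR, adjusted p = 0.611), and TNFRSF13C had -0.52 ± 0.46 (SE, edgeR, adjusted p = 0.69). B-like cells made up 5.21%, 5.06% and 4.82% of cells in the control libraries and 3.14%, 2.94% and 0.718% in the asthma libraries. The groups did not overlap (two-sided exact permutation test over 20 assignments, p = 0.1, the smallest possible, adjusted p = 0.514 over 12 cell types). Dendritic-like cells made up 3.36 ± 2.07% of control and 0.966 ± 0.295% of asthma cells (SD, n = 3 each, exact permutation test, adjusted p = 0.514), CD4 T-like cells 6.22 ± 2.44% and 6.87 ± 3.15%, and plasma-like cells 0.708 ± 0.392% and 0.454 ± 0.226%. So the B-like share was lower in every asthma library. Inside B-like cells TNFRSF13B and TNFRSF13C were at a higher CPM in every asthma library than in any control library. Groups did not overlap in either direction for 11.4% of all genes tested there. Outside sub-cluster 2 the groups overlapped for TNFRSF13B, and the highest TNFRSF13C value rests on 4 UMIs. With all cells summed no member had groups that did not overlap, against 19% of genes tested.

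The other genes of these pathways were described in 3 lists. The signalling list holds the TRAF adaptors, the kinases and the NF-kB subunits that act below these receptors, with 15 of its 15 genes in the files. The list of survival and activation targets has 14 of 15 genes, and the list of neighbouring ligands and of the B cell niche 13 of 16. None was called in any fit by edgeR. At an unadjusted p under 0.05 there were 12 of 106 signalling tests, 13 of 75 target tests and 4 of 45 niche tests over the 10 cell type fits, or 11.3%, 17.3% and 8.89%, beside 7.8% of all gene tests, and DESeq2 called 0, 1 and 0 of them. In the same fits 70 of the signalling (66%), 38 of the target (50.7%) and 28 of the niche tests (62.2%) had positive log2 fold changes, beside 50.3% of all gene tests.

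In stromal-like cells 11 of 13 signalling genes had positive fold changes with a median of 0.50 (median of all genes 0.01), and 7 had asthma libraries above all control libraries, where 31.5% of genes did not overlap in either direction. The stromal-like subtypes differed between groups, with endothelial-like cells at 24.3% of control and 49.3% of asthma stromal-like cells, pericyte-like cells at 0.306% and 9.41%, fibroblast-like cells at 44.1% and 22.6% and smooth muscle-like cells at 26.8% and 10.8%. Of the 354 cells named smooth muscle-like, 284 formed a sub-cluster led by SOSTDC1, TNC and ASPN, with PDGFRA among its 10 leading genes. Contractile muscle genes (ACTG2, CNN1 and DES) led only the sub-cluster of the remaining 70. The part of the subtypes in the stromal-like fold changes was not tested. TRAF2, an adaptor, had a log2 fold change of 0.87 ± 0.34 and CHUK, the kinase IKK alpha, of 0.82 ± 0.31 (SE, edgeR, adjusted p = 0.212 and 0.197). PRDM1, the regulator Blimp-1, had 1.97 ± 0.48 there (SE, edgeR, adjusted p = 0.0795), at 38.7 ± 15.7 against 8.89 ± 4.54 CPM (SD, n = 3 each). The stromal-like share was 23.4% in asthma replicate 11, and the 185 stromal-like calls fell to 0 without asthma replicate 10, to 3 without control replicate 3, to 39 without control replicate 2, to 52 without control replicate 1 and to 57 without asthma replicate 8, and rose to 371 without asthma replicate 11.

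In B-like cells the 12 tested target genes had a median log2 fold change of -0.20, with 10 of 12 negative, against a median of 0.00 over all genes. LTA, lymphotoxin alpha, was 28.9 ± 18.2 against 9.89 ± 3.92 CPM (log2 fold change 1.70 ± 0.44, edgeR adjusted p = 0.554), and its fold change was 0.97 without asthma replicate 8. BIRC2, the inhibitor cIAP1 of noncanonical NF-kB signalling, was 49.7 ± 15.7 against 81.5 ± 14.6 CPM (-0.85 ± 0.26, edgeR adjusted p = 0.609). Its fold change was -0.55 without asthma replicate 10. Plasma-like cells had MCL1, the survival factor downstream of BCMA, at 49.3, 60.8 and 160 CPM in control replicates 1, 2 and 3 against 19.5 and 23.5 CPM for asthma replicates 10 and 11 (log2 fold change -1.35 ± 0.49, SE, edgeR adjusted p = 0.802), and the fold change was -1.03 without control replicate 3. The plasma-like cells of that library also had the highest sums of granulocyte markers (934 CPM) and B markers (302 CPM), whose part was not tested. IRF4 was at 68.7 ± 7.56 against 117 ± 40.6 CPM (SD, edgeR adjusted p = 0.901), with a log2 fold change of -0.26 that turned to 0.03 without asthma replicate 10. In these cells 24.5% of genes did not overlap.

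In the ligand-bearing myeloid cells, 12 of 12 signalling genes tested had positive fold changes in dendritic-like cells, with a median of 0.36 (median of all genes 0.00), none of them with separated groups, where 11.3% of genes were. Type 1 cells were 164 of 394 dendritic-like cells in control libraries, 121 of them in control replicate 3, and 19 of 122 in asthma libraries, and their part in these fold changes was not tested. LTBR, the lymphotoxin beta receptor, was 30.7 ± 2.55 against 42.3 ± 7.62 CPM there (edgeR adjusted p = 0.835). In macrophage-like cells, with 13.7% of genes separated, ICAM1, an adhesion molecule induced by NF-kB, had a log2 fold change of 0.67 ± 0.23, RELB, the noncanonical NF-kB subunit, of 0.69 ± 0.29 and IL10, the cytokine, of 0.90 ± 0.38 (SE, edgeR, adjusted p = 0.837, 0.89 and 0.89). Without asthma replicate 10 RELB was 0.44 and IL10 was 0.49. In monocyte-like cells, with 12% separated, LTB had 0.92 ± 0.24, MCL1 -0.66 ± 0.17 and BCL2A1 -0.51 ± 0.20 (SE, edgeR, adjusted p = 0.524, 0.524 and 0.733). BCL2A1 was -0.31 there without control replicate 1. RELA, the canonical NF-kB subunit, had 0.68 ± 0.39 in granulocyte-like cells (SE, edgeR, adjusted p = 0.9998), with 8.97% of genes separated. It was 0.38 without control replicate 1 and 1.07 without control replicate 2.

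In CD4 T-like cells, where 12.3% of genes were separated, BCL2L1, the survival factor Bcl-xL, was 41.3 ± 9.5 against 20.8 ± 2.71 CPM (log2 fold change 0.93 ± 0.25, edgeR adjusted p = 0.397), TNFSF12 had 0.42 ± 0.20 and CAMLG, a membrane protein that binds TACI, 0.06 ± 0.16 (SE, edgeR, adjusted p = 0.807 and 0.971). Without control replicate 3 CAMLG was 0.02 in CD4 T-like cells. In all T and NK-like cells LTB had 0.44 ± 0.24, BCL2A1 -0.39 ± 0.12 and TNFSF12 0.22 ± 0.14 (SE, edgeR, adjusted p = 0.793, 0.532 and 0.835). There LTB was 0.15 without asthma replicate 11, and TNFSF12 was 0.078 without asthma replicate 10. Epithelial-like cells, whose subtypes differed between groups as given above, had 13.5% of genes separated. BCL2A1 was at -1.53 ± 0.41, REL at -1.02 ± 0.27 and TRAF6 at -0.73 ± 0.32 there (SE, edgeR, adjusted p = 0.626 for each). Without control replicate 1 BCL2A1 was -0.90 in these cells. MC-like cells, with 10.5% separated, had RELA at -0.46 ± 0.30 (SE, edgeR, adjusted p = 0.999), and at -0.78 without asthma replicate 8. Over all cells ICAM1 had 0.57 ± 0.15 and LTBR 0.25 ± 0.13 (SE, edgeR, adjusted p = 0.239 and 0.484).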

How the data were processed

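Per the labels and the study's methods, lung was dissociated, captured as 3′ droplet libraries and sequenced, and reads were aligned to macFas6 with Cell Ranger (version 2.1.1 in the submitters' processing notes, while other sources name other versions). The authors deposited raw UMI counts per gene and barcode, not normalized. Whether counting split reads of TNFSF12 and TNFSF13 is not given in the sources used here.

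Of 35133 barcodes, cells were kept when they had over 500 but under 5000 genes, a minimum of 500 UMIs and a mitochondrial share no higher than 25%. Cells were clustered in scanpy 1.11.5 (2000 variable genes without the 7 members, 10 components, 20 neighbours, Leiden resolution 0.8) and named from marker lists. A name needed at least 3 markers, and the thresholds for mixed cells were chosen after seeing the data. Doublets were not removed except as an alternative.

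UMIs were summed per library and cell type with at least 10 cells and tested with edgeR 4.0.16 (TMM, filterByExpr, quasi-likelihood) or, as an alternative, DESeq2 1.42.0. Mast-like cells could not be fitted, since fewer than 2 control libraries had 10 of them. Both tests were tested on simulated data with 200 genes changed by a log2 of 2. In B-like cells edgeR recovered 174 of them and called 7 unchanged genes, and DESeq2 recovered 154 and called 0. In macrophage-like cells edgeR recovered 166 and called 8 unchanged genes, and DESeq2 recovered 177 and called 35. The 10 contrasts between cell types used log2(CPM + 10) and exact sign-flip permutation over libraries. The unit of every test was the library, 1 per monkey. Where all libraries had the same sign, the sign-flip p was set by their number alone, whatever their spread. Members and gene lists were chosen with earlier results of these data known. Genes named beyond the members were, per fit, up to 3 list genes with separated groups and the largest fold changes, and the 3 genes most like each member by Pearson r. Of these, 1 list gene is not reported here. Alternatives changed the filters, resolution, doublets, test, pseudocount and libraries. No sequence or coordinate is given, since no reference of the files' build was used here.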

Additional observations from a re-analysis of the deposited data

How the results depend on the processing

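No pairing of asthma with control libraries was possible because the groups share no replicate numbers. The contrasts between cell types were paired within each library. Of 10 contrasts between cell types, 9 kept their direction under all alternatives run. The exception was CD40LG in CD4 T-like against other T and NK-like cells, at -0.29 with at least 200 genes and no maximum, where the name fell on other cells. Leaving out a library leaves 5, whose smallest exact p is 0.0625, so the 8 contrasts of 6 libraries no longer passed. They then ran from 4.38 to 4.6 (TNFRSF13B), 3.58 to 3.70 (CD40, B-like), 1.95 to 2.16 (CD40, dendritic-like), 2.83 to 3.07 (CD40LG), 1.02 to 1.29 (TNFSF13B, monocyte-like), 3.99 to 4.70 (TNFSF13B, granulocyte-like), 4.82 to 4.99 (TNFSF13 against T and NK-like) and 2.65 to 3.04 (TNFSF13 against MC-like cells). With more libraries holding 10 plasma-like cells, TNFRSF17 passed at 3.61 (200 genes) and 4.34 (resolution 1.6), and TNFRSF13C at 1.08 (resolution 1.6).

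Members called over the cell type fits were 0, and 1 without a filter. Genes called were 188, with 1164 without a filter, 624 in DESeq2 and 4 to 384 with a library left out. Over all cells 12 were called, with 45 without a filter, 649 in DESeq2, 7 with 200 genes and 0 to 11 with a library left out.

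Of 35 fold changes of members, 24 changed sign in 52 of 415 alternative values, 36 of them with a library left out, and the cause was not tested. With at least 200 genes, TNFSF13B in dendritic-like cells was -0.14, TNFRSF17 in B-like cells was 0.17 and TNFRSF17 in T and NK-like cells was -0.84. With doublets removed, TNFSF13 in MC-like cells was -0.37, TNFSF13 in epithelial-like cells was 0.16 and TNFSF13B in stromal-like cells was -0.47. With a mitochondrial maximum of 10%, TNFSF13 in all cells was 0.058, TNFSF13B in CD4 T-like cells was 0.14, TNFRSF17 in T and NK-like cells was -0.14, TNFRSF17 in plasma-like cells was -0.18, CD40 in B-like cells was -0.030 and CD40 in monocyte-like cells was -1.64. Without a filter, TNFSF13B in dendritic-like cells was -0.025. At a resolution of 1.6, TNFSF13 in epithelial-like cells was 0.088, TNFSF13B in dendritic-like cells was -0.017 and TNFRSF17 in B-like cells was 0.063. With each library left out in turn, fold changes that changed sign ran from -0.12 to 0.29 for CD40 in B-like cells, -0.53 to 0.031 for CD40 in all cells, -0.52 to 0.16 for CD40 in dendritic-like cells, -0.038 to 0.80 for CD40 in macrophage-like cells, -1.35 to 1.18 for CD40 in monocyte-like cells, -0.067 to 0.59 for CD40 in stromal-like cells, -0.13 to 0.13 for CD40LG in CD4 T-like cells, -0.14 to 0.38 for CD40LG in all cells, -0.61 to 0.14 for TNFRSF13B in plasma-like cells, -0.52 to 0.31 for TNFRSF17 in B-like cells, -0.20 to 1.36 for TNFRSF17 in T and NK-like cells, -0.55 to 0.059 for TNFRSF17 in all cells, -0.12 to 0.41 for TNFSF13 in MC-like cells, -0.20 to 0.22 for TNFSF13 in all cells, -0.096 to 0.30 for TNFSF13 in dendritic-like cells, -0.50 to 0.074 for TNFSF13 in epithelial-like cells, -0.20 to 0.11 for TNFSF13 in macrophage-like cells, -0.17 to 0.0066 for TNFSF13 in monocyte-like cells, -0.13 to 0.61 for TNFSF13 in stromal-like cells, -0.41 to 0.72 for TNFSF13B in T and NK-like cells, -0.18 to 0.21 for TNFSF13B in dendritic-like cells and -0.32 to 0.25 for TNFSF13B in stromal-like cells.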
